A study of Mus musculus with 6 samples.

Results

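The genes that carry a cell through mitosis were measured in 2 zones of the mouse jaw joint, the articular zone and the mature zone of the mandibular condyle. The group holds 50 genes of the G2/M transition, the condensed chromosome, the kinetochore, the spindle and cytokinesis, taken by name from the 22609 gene symbols of the deposited count table. All 50 were in that table and all 50 passed the filter on low counts, which kept 13119 genes in all. The samples were cells cut by laser from condyles of CD-1 mice at postnatal day 7, with 25 to 30 sections of a zone pooled into each sample and an RNA integrity number above 6. Values were available for 3 articular zone libraries, numbered 2, 3 and 4, and for 2 mature zone libraries, numbered 2 and 3, while mature zone replicate 4 had no values because it mapped poorly according to its labels. No genotype or treatment separated the groups, and the zones were told apart by cell morphology under the microscope. The labels call the samples independent biological replicates, but how many animals each pool came from is not stated in the labels or methods, so the p-values measure the spread between these 5 libraries.

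Depth was similar in both zones, with totals of 15449883 to 18884685 counts in articular and 15555620 to 16302047 counts in mature zone libraries. The zone labels were checked against markers. Of 12 genes of cartilage matrix and chondrocyte identity, 11 were called lower in the articular zone and none higher. Col2a1 was not called, with 875, 8602 and 8121 counts in the articular zone, against 163765 and 291625 counts in the mature zone. Of 8 markers of the articular surface, 4 were called higher and none lower. Those 4 were Islr, Dcn, Aspn and Col3a1, while Prg4, Thy1, Postn and Col1a1 were not called. Prg4 had only 32, 11 and 57 counts in the articular zone, against 11 and 0 counts in the mature zone. Col1a1 had a negative log2 fold change, -0.23. Levels of a gene are given as CPM, counts scaled to library size and adjusted by TMM, always in the order articular zone replicates 2, 3 and 4 and then mature zone replicates 2 and 3. Levels of different genes are compared only in FPKM, which is scaled for gene length. Fold changes from edgeR are on the log2 scale, positive where the articular zone was higher, with their standard error (SE). A call means an adjusted p (Benjamini-Hochberg, over all genes tested) under 0.05.

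A dividing cell builds its mitotic machinery anew in each cycle. Cyclin-bound Cdk1 starts mitosis, condensins and topoisomerase II compact and untangle the chromosomes, kinetochores tie them to spindle microtubules, the checkpoint holds the cell until every kinetochore is attached, and kinesins and actin regulators then part the chromosomes and the daughter cells. Transcripts of these genes rise together late in the cycle and are low in resting cells. In the cartilage of the mandibular condyle, dividing cells are known to lie mainly beneath the articular surface, between it and the mature chondrocytes, and the labels do not say with which zone that layer was cut.

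Promoters of such genes are known for a pair of short elements, the cell cycle genes homology region (CHR), which is bound by the DREAM and MuvB complexes, and the CCAAT box, which is bound by NF-Y. The CHR was searched as the motif TTTGAA and as its variant with a central CG, which is spelled TTCGAA and reads alike on both strands. The CCAAT box was searched by the letters that name it. Matches on either strand were counted, and one on the other strand appears in reverse complement. The search covered the RefSeq promoter windows of GRCm38.p6, from 250 bases before to 50 bases after the transcription start. The 150 bases just upstream of the start are shown for 3 genes that were called higher in the articular zone (Mki67, Top2a and Ncapg) and for 3 that were not (Cdk1, Cdc20 and Espl1), so that their elements can be set side by side. Sequences run 5′ to 3′ on the strand of the gene, and capitals mark the 2 elements. They are Mki67 at chr7:135716380-135716529 (minus strand), Top2a at chr11:99024190-99024339 (minus), Ncapg at chr5:45669775-45669924 (plus), Cdk1 at chr10:69352913-69353062 (minus), Cdc20 at chr4:118437344-118437493 (minus) and Espl1 at chr15:102296143-102296292 (plus).
Mki67: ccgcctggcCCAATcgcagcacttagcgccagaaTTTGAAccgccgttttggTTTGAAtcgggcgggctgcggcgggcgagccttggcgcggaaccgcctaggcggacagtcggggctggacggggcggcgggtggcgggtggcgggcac
Top2a: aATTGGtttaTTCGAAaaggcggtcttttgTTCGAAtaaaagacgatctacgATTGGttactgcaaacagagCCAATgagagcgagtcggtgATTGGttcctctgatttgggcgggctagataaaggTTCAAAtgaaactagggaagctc
Ncapg: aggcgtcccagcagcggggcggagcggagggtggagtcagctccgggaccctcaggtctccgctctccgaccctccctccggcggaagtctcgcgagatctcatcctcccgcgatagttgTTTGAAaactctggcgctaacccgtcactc
Cdk1: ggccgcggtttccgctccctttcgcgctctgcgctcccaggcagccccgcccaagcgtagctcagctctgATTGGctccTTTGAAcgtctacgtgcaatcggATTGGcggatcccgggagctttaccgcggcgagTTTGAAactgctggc
Cdc20: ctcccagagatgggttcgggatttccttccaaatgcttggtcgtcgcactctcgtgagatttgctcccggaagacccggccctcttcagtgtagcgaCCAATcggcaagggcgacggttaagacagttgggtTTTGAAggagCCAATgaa
Espl1: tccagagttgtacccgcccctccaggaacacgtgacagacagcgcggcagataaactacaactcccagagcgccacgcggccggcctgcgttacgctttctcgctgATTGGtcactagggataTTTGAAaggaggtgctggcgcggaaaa
In the stretches shown, Top2a has 3 CHR matches and 4 CCAAT boxes and Mki67 has 2 and 1, while Ncapg has 1 CHR match and no CCAAT box. Among those not called, Cdk1 has 2 of each, Cdc20 has 1 CHR match and 2 CCAAT boxes, and Espl1 has 1 of each. Matches thus stand in called and uncalled genes.

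The promoter table held 41 of the 50 mitosis genes. The 9 others are Ccna2, Cdc25c, Foxm1, Smc4, Aurkb, Incenp, Spc24, Kif20a and Tpx2. A CHR match was found for 31 of the 41 (75.6%), against 21.7% of the 27025 genes in the whole promoter table and 16.2% of the 9216 tested genes matched to it. The 10 mitosis genes with no match were Birc5, Ccnb1, Cenpe, Kif18a, Mad2l1, Melk, Ncaph, Nuf2, Nusap1 and Sgol2. Within 50 bases of the start, a match was found for 27 (65.9%), against 6.12% of all genes in the table. A CCAAT box was found for 30 (73.2%), against 41.1%, and both elements together for 27 (65.9%), against 8.61%. Of the 8 called genes in the table, 6 had a CHR match. The same search gave 57.4% for other mitosis genes, 33.3% for regulators of G2/M transcription, 28.6% for genes of G1/S and DNA replication, 16.7% for subunits of the anaphase-promoting complex and cohesin and 11.1% for inhibitors of the cell cycle. A CCAAT box was found for 64.7% of other mitosis genes, 50.0% of the regulators, 21 of 35 G1/S and replication genes, 44.4% of the subunits and 77.8% of the inhibitors. These are matches of letters, described with no test, and base composition was not matched.

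**Figure D1:**
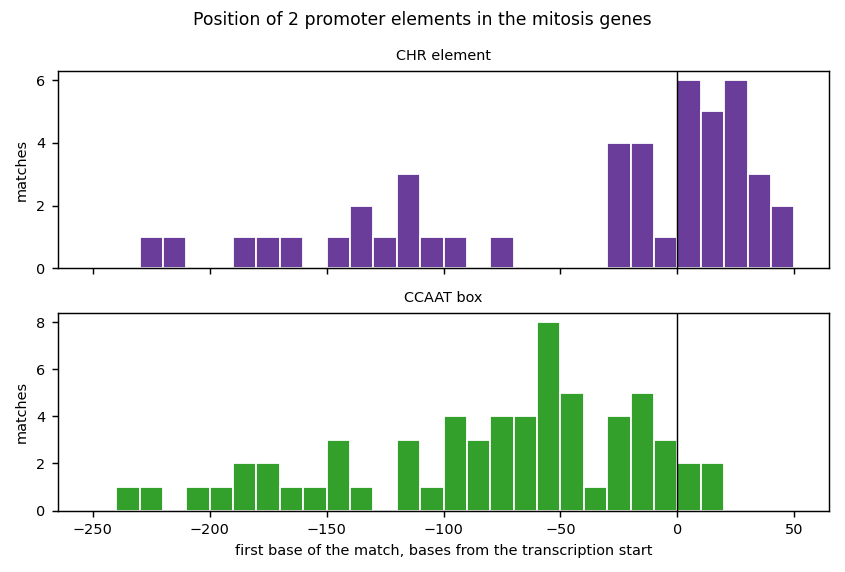
Position of CHR matches (top) and CCAAT boxes (bottom) in the 44 promoter windows, each of 300 bases, of 41 mitosis genes, as the number of matches in bins of 10 bases, with the transcription start at 0 and a site in 2 overlapping windows drawn once for each start. Counted once, 29 of 43 CHR sites lie within 50 bases of a start and 56 of 59 CCAAT boxes lie upstream of one; 1 CHR match and 1 CCAAT box overlap.

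Every mitosis gene had a higher fitted level in the articular zone, and 10 of the 50 passed the test. The 10 called higher were the proliferation marker Mki67, the topoisomerase Top2a, the condensin subunits Ncapg and Smc2, the passenger protein Incenp, the kinesins Kif18a and Kif23, the contractile ring scaffold Anln, the spindle assembly factor Tpx2 and the cohesion protector Sgol2. None was called lower. That is 20.0% of the mitosis genes, against 150 of the 13119 genes tested, or 1.14%, that were called higher and 1.85% that were called lower. All 50 had a positive log2 fold change, as did 53.5% of all genes tested, and their median was 1.30, against 0.07 over all genes tested. Summed over the 50 genes, the level was 4228, 4782 and 4819 CPM in the articular zone, against 2218 and 1595 CPM in the mature zone, a ratio of the means of 2.42.

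Every articular zone library was above every mature zone library for 44 of the 50 (88.0%), which held for 21.1% of all genes tested. The 6 whose zones overlapped were Ccnb2, Cdc20, Kif14, Kif2c, Ect2 and Espl1. At an unadjusted p under 0.05 in edgeR, 37 of the 50 (74.0%) were higher, against 10.8% of all genes tested. DESeq2 called 28 of the 50 higher, where it called 7.9% of all genes tested. The count of calls also rested on single libraries, as did the share of all genes tested that was called higher. The count was 1 without articular zone replicate 2, where 0.12% of all genes tested were called higher. It was 0 without replicate 3 of that zone (0.203% of all genes) and 0 without replicate 4 (0%). At an unadjusted p under 0.05 in edgeR, 28 were higher in each of these last 2 fits. The share of all genes tested that passed this cut was not counted in these 2 fits. Leaving out a mature zone library leaves a single library there, so the median log2 fold change is given instead. For the 50 genes it was 1.79 without mature zone replicate 2 and 0.99 without mature zone replicate 3. Without both libraries numbered 2, which also leaves only mature zone replicate 3 in its zone, that median was 1.75. In none of these fits was a mitosis gene called lower. Since these are bulk samples, fewer dividing cells in a zone and less of each transcript per dividing cell cannot be told apart.

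**Figure D2:**
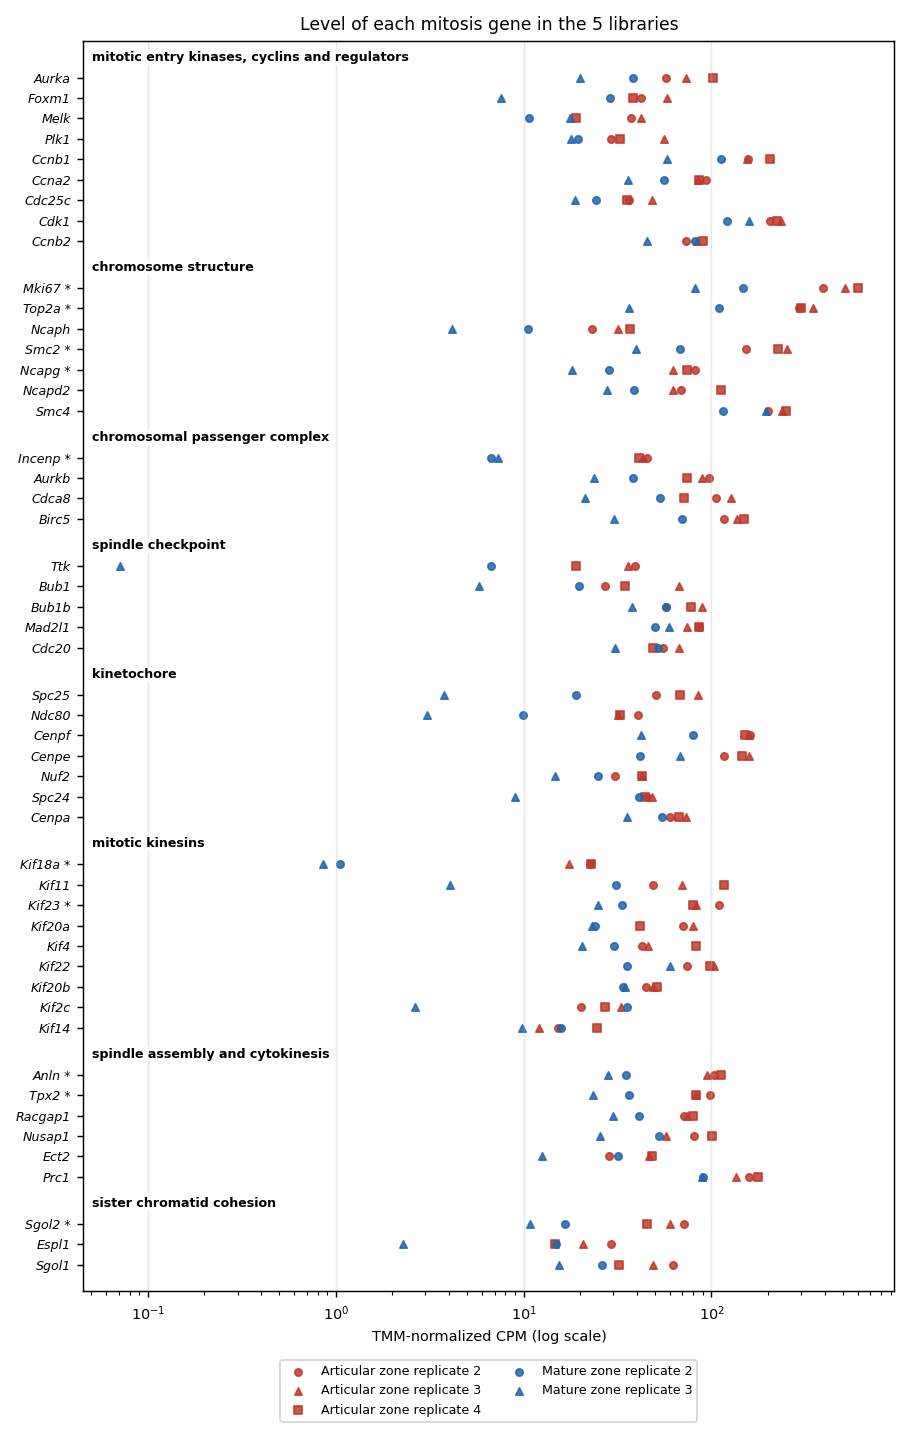
Level of each of the 50 mitosis genes in the 5 libraries, in TMM-normalized CPM on a log axis, grouped by role. Red symbols are articular zone replicates 2 (circle), 3 (triangle) and 4 (square), blue symbols are mature zone replicates 2 (circle) and 3 (triangle), and an asterisk marks the 10 genes called higher; the red symbols lie right of the blue for 44 genes.

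Genes that bring the cell into mitosis had positive log2 fold changes, and none of the 9 was called in edgeR. DESeq2, which called 7.9% of all genes tested higher, called 4 of the 9 higher. Cdk1, the kinase that starts mitosis, was the most abundant of them by FPKM and had 204, 234 and 222 CPM in the articular zone, against 121 and 159 CPM in the mature zone. The zones did not overlap, and the log2 fold change was 0.65 (SE 0.21, adjusted p = 0.14 in edgeR). Its cyclin partners Ccna2, Ccnb1 and Ccnb2 had log2 fold changes of 0.94, 1.01 and 0.37. Ccnb2 had 73.2, 83.7 and 89.8 CPM in the articular zone, against 81.6 and 45.5 CPM in the mature zone, so that mature zone replicate 2 fell inside the articular range, and it had the smallest fold change of the 50.

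Cdc25c, the phosphatase that activates Cdk1, had a log2 fold change of 0.90, and the mitotic kinases Plk1 and Aurka had 1.06 and 1.42. Aurka, which acts at the spindle poles, had 57.3, 73.2 and 102 CPM in the articular zone, against 38.0 and 19.9 CPM in the mature zone (adjusted p = 0.113 in edgeR). Melk, a kinase found in dividing cells and the least abundant of the 9 by FPKM, had 37.5, 42.2 and 19 CPM in the articular zone, against 10.7 and 17.6 CPM in the mature zone. Articular zone replicate 4 thus lay just above mature zone replicate 3 for Melk. Foxm1, the transcription factor that drives G2/M genes, had 41.9, 58.2 and 38.4 CPM in the articular zone, against 28.7 and 7.56 CPM in the mature zone, for a log2 fold change of 1.35 (SE 0.58).

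Genes of chromosome structure held the most calls, 4 of 7, and had a median log2 fold change of 1.97. Mki67 coats the surface of mitotic chromosomes and is the usual marker of dividing cells. It had 393, 513 and 599 CPM in the articular zone, against 148 and 81.7 CPM in the mature zone. The lowest articular library was above the highest mature library, and the log2 fold change was 2.13 (SE 0.31, adjusted p = 0.0163 in edgeR), the smallest adjusted p of the 50. Top2a, which untangles sister chromatids, had 293, 347 and 298 CPM in the articular zone, against 109 and 36.5 CPM in the mature zone. Its log2 fold change was 2.10 (SE 0.43, adjusted p = 0.045 in edgeR).

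The condensins compact chromosomes into rods, with Smc2 and Smc4 as the paired motor subunits of both condensin complexes and Ncapd2, Ncapg and Ncaph as the further subunits of condensin I. Smc2 had 153, 253 and 226 CPM in the articular zone, against 68.1 and 39.8 CPM in the mature zone (log2 fold change 1.97, SE 0.33, edgeR adjusted p = 0.0248). Ncapg had 81.9, 62.7 and 74.4 CPM in the articular zone, against 28.3 and 18.1 CPM in the mature zone (log2 fold change 1.65, SE 0.34, edgeR adjusted p = 0.0464). In both genes the lowest articular library was over 2 times the highest mature library. Smc4 had 200, 236 and 249 CPM in the articular zone, against 115 and 196 CPM in the mature zone, so that mature zone replicate 3 nearly reached the articular range, and its log2 fold change was 0.55 (SE 0.26). Whether the 2 motor subunits differed from each other in their change was not tested. Ncaph, the least abundant of the 7 by FPKM, had 23.2, 31.6 and 37.0 CPM in the articular zone, against 10.5 and 4.14 CPM in the mature zone (log2 fold change 2.06, SE 0.59, edgeR adjusted p = 0.112), and Ncapd2 had a log2 fold change of 1.29.

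The chromosomal passenger complex corrects faulty attachments at centromeres and then moves to the cleavage site. Its scaffold Incenp had 45.3, 43.3 and 41.0 CPM in the articular zone, against 6.70 and 7.27 CPM in the mature zone. Both zones were tight for Incenp, and its log2 fold change of 2.63 (SE 0.41, adjusted p = 0.0182 in edgeR) was the third largest of the 50. The kinase Aurkb had 96.7, 88.8 and 74.3 CPM in the articular zone, against 38.0 and 23.7 CPM in the mature zone (log2 fold change 1.49, SE 0.33, edgeR adjusted p = 0.057), just outside the threshold. Birc5, or survivin, was the most abundant of all 50 by FPKM and had 116, 136 and 149 CPM in the articular zone, against 69.8 and 30.1 CPM in the mature zone. Cdca8, or borealin, had 71.3 to 127 CPM in the articular zone, against 53.1 and 21.2 CPM in the mature zone. The zones did not overlap for any of the 4, and the summed level of the complex was 364, 395 and 335 CPM in the articular zone, against 168 and 82.3 CPM in the mature zone.

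The checkpoint genes had the smallest median log2 fold change of the 8 roles, 0.66, and no call among 5 in edgeR. In DESeq2, 1 of the 5 was called higher, against 7.9% of all genes tested. Cdc20, the activator of the anaphase-promoting complex that the checkpoint restrains, had 55.5, 67.2 and 48.7 CPM in the articular zone, against 51.8 and 30.7 CPM in the mature zone. The zones overlapped for Cdc20, and its log2 fold change was 0.47 (SE 0.35, adjusted p = 0.519 in edgeR). Mad2l1, the inhibitor of Cdc20 at unattached kinetochores, had 74.1 to 85.6 CPM in the articular zone, against 49.8 and 59.6 CPM in the mature zone, and Bub1b, or BubR1, had 57.4 to 89.2 CPM, against 57.0 and 37.6 CPM. The checkpoint kinase Bub1, the least abundant of the 5 by FPKM, had 27.2, 67.2 and 34.7 CPM in the articular zone, against 19.8 and 5.78 CPM in the mature zone. Its articular libraries differed among themselves by 2.47 times, the widest such ratio of the 50. Ttk, the kinase Mps1, had 39.3, 36.1 and 18.9 CPM in the articular zone, against 6.70 and 0.0713 CPM in the mature zone. The last value is 1 count, and the log2 fold change of 3.21 had an SE of 1.30 (adjusted p = 0.219 in edgeR).

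At the kinetochore all 7 genes had every articular zone library above both mature zone libraries, yet none passed the test in edgeR. DESeq2 called 4 of the 7 higher, against 7.9% of all genes tested. The Ndc80 complex, which grips the microtubule, is made of Ndc80, Nuf2, Spc24 and Spc25. Spc25 had 50.9, 85.1 and 68.2 CPM in the articular zone, against 18.9 and 3.78 CPM in the mature zone (log2 fold change 2.58, SE 0.66, edgeR adjusted p = 0.0867). Ndc80 had 40.4, 31.9 and 32.7 CPM in the articular zone, against 9.92 and 3.07 CPM in the mature zone (log2 fold change 2.43, SE 0.61, edgeR adjusted p = 0.0827). The other subunits had smaller log2 fold changes, 0.96 for Nuf2 and 0.88 for Spc24, and the differences between the subunits were not tested. Spc24 had 41.0 CPM in mature zone replicate 2 and 8.98 CPM in replicate 3.

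Cenpa, the histone variant that marks centromeres, was the most abundant of the 7 by FPKM and had 60.2, 73.5 and 66.9 CPM in the articular zone, against 54.7 and 35.3 CPM in the mature zone, for a log2 fold change of 0.57 (SE 0.31). Cenpf, a large protein of the outer kinetochore and the least abundant of the 7 by FPKM, had 161, 159 and 150 CPM in the articular zone, against 79.4 and 41.9 CPM in the mature zone. Cenpe, a kinesin that carries chromosomes to the spindle equator, had 117, 159 and 146 CPM in the articular zone, against 41.4 and 68.2 CPM in the mature zone. Cenpe and Cenpf had log2 fold changes of 1.36 and 1.37 and adjusted p values of 0.0567 and 0.0592 in edgeR, both just outside the threshold.

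**Figure D3:**
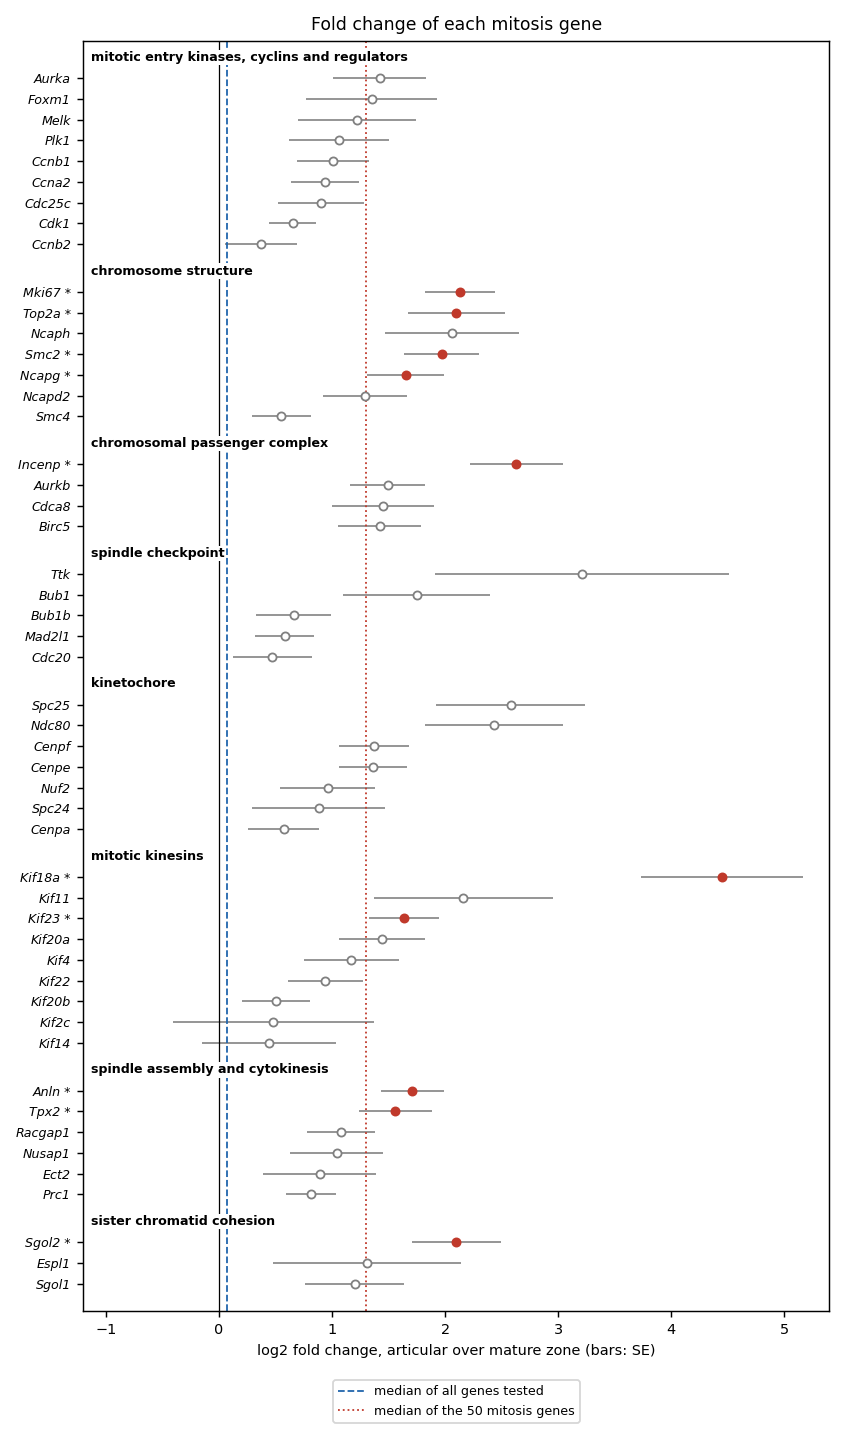
Log2 fold change, articular over mature zone, of each mitosis gene by role, with bars of 1 SE from edgeR and filled red points with an asterisk for the 10 genes called higher. All 50 points lie right of 0, with a median of 1.30 (dotted) against 0.07 for all genes tested (dashed).

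Among the 9 mitotic kinesins, 2 were called. Kif18a, which dampens chromosome movement at the spindle equator, had the largest fold change of the 50. It had 22.6, 17.5 and 22.7 CPM in the articular zone, against 1.05 and 0.856 CPM in the mature zone, which are 16 and 12 counts. The log2 fold change was 4.45 (SE 0.72, adjusted p = 0.0202 in edgeR), and its FPKM was listed at the lowest value of the table, 0.1, in both mature zone libraries. Kif23, or MKLP1, which bundles microtubules of the midzone, had 110, 83.0 and 79.6 CPM in the articular zone, against 33.2 and 25.0 CPM in the mature zone (log2 fold change 1.64, SE 0.31, edgeR adjusted p = 0.0345).

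The other kinesins were not called in edgeR, while DESeq2 also called Kif11 and Kif20a higher. Kif22, which pushes chromosome arms outward and was the most abundant of the 9 by FPKM, had 74.1, 103 and 97.6 CPM in the articular zone, against 35.3 and 60.2 CPM in the mature zone. Kif11, or Eg5, which slides spindle poles apart, had 48.6, 69.3 and 117 CPM in the articular zone, against 31.1 and 4.06 CPM in the mature zone, for a log2 fold change of 2.16 (SE 0.79). Kif20a, which acts in cytokinesis, the chromokinesin Kif4 and Kif20b, a kinesin of late cytokinesis, had log2 fold changes of 1.44, 1.17 and 0.50, with the zones apart in each. Kif2c, which takes down microtubules at centromeres, had 20.2, 33.1 and 27.1 CPM in the articular zone, against 35.7 and 2.64 CPM in the mature zone. It was the only one of the 50 whose highest library was of the mature zone, and its log2 fold change of 0.48 (SE 0.89) became -0.41 without mature zone replicate 3. Kif14, the least abundant of the 50 by FPKM and a partner of Prc1 in cytokinesis, had 15.2, 12.1 and 24.5 CPM in the articular zone, against 15.8 and 9.77 CPM in the mature zone, so that the zones overlapped.

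Of the 6 genes of spindle assembly and cytokinesis, 2 were called. Anln, which links actin, myosin and septins in the contractile ring, had 103, 94.6 and 113 CPM in the articular zone, against 35.1 and 28.2 CPM in the mature zone (log2 fold change 1.71, SE 0.28, edgeR adjusted p = 0.0201). Tpx2, which activates Aurka and nucleates spindle microtubules, had 98.2, 83.2 and 82.5 CPM in the articular zone, against 36.4 and 23.3 CPM in the mature zone (log2 fold change 1.56, SE 0.32, edgeR adjusted p = 0.0448). For both, the 3 articular libraries lay close together and over 2 times above the mature libraries. Prc1, which crosslinks the midzone microtubules and was the most abundant of the 6 by FPKM, had 158, 135 and 177 CPM in the articular zone, against 89.8 and 89.5 CPM in the mature zone (log2 fold change 0.81, SE 0.22, edgeR adjusted p = 0.101).

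Racgap1, the partner of Kif23 in the centralspindlin complex, had 71.6 to 80.2 CPM in the articular zone, against 41.3 and 29.9 CPM in the mature zone (log2 fold change 1.08, SE 0.30, edgeR adjusted p = 0.101). Nusap1, which stabilises spindle microtubules, had 57.1 to 101 CPM in the articular zone, against 52.3 and 25.4 CPM in the mature zone. Ect2, the exchange factor that activates RhoA for the contractile ring and the least abundant of the 6 by FPKM, had 28.4, 46.3 and 48.3 CPM in the articular zone, against 31.7 and 12.5 CPM in the mature zone. Articular zone replicate 2 was below mature zone replicate 2 for Ect2.

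The genes that guard or cut sister chromatid cohesion included 1 call. Sgol2, a shugoshin that shields cohesin at centromeres and the most abundant of the 3 by FPKM, had 71.3, 60.3 and 45.6 CPM in the articular zone, against 16.6 and 10.8 CPM in the mature zone (log2 fold change 2.10, SE 0.39, edgeR adjusted p = 0.0329). The annotation places 35% of its exonic bases over exons of a gene on the other strand, the highest such share of the 50, and whether counting used strand is not stated in the labels or methods. Its relative Sgol1 had 32.3 to 62.3 CPM in the articular zone, against 26.1 and 15.5 CPM in the mature zone. Espl1, or separase, the protease that cuts cohesin at anaphase and the least abundant of the 3 by FPKM, had 29.0, 20.6 and 14.6 CPM in the articular zone, against 14.9 and 2.28 CPM in the mature zone. Articular zone replicate 4 and mature zone replicate 2 were nearly equal for Espl1, and its log2 fold change was 1.31 (SE 0.83). For 37 of the 50 genes no exonic base overlapped an exon on the other strand, and for 7 the share was above 10%, which among the called genes besides Sgol2 was Ncapg with 13.4%.

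In FPKM, averaged over the 5 libraries, Birc5 was the most abundant of the 50 with 61.6, followed by Cdk1 with 26.5, Kif22 with 26.3, Cdca8 with 25.9 and Ccnb2 with 24.3. Birc5 had 72.8, 82.6 and 91.7 FPKM in the articular zone, against 45.7 and 15.2 FPKM in the mature zone. Cdk1 had 29.1, 34.3 and 33.6 FPKM in the articular zone, against 17.0 and 18.4 FPKM in the mature zone, and Kif22 had 27.9, 36.9 and 36.0 FPKM, against 13.3 and 17.1 FPKM. In every articular zone library Birc5 was above Cdk1, while in mature zone replicate 3 it was below Cdk1 and Kif22. The next genes in the order, from Cdk1 to Ccnb2, lay within each other's spread over the libraries. At the low end were Ect2 with 2.13, Espl1 with 1.70, Kif18a with 1.46 and Kif14 with 0.655 FPKM. Kif14 had 0.603, 0.560 and 1.12 FPKM in the articular zone, against 0.636 and 0.356 FPKM in the mature zone.

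Within the summed level of the 50 genes, the makeup differed between libraries. Mki67 took 9.29%, 10.7% and 12.4% of the sum in the articular zone, against 6.65% and 5.12% in the mature zone, and Top2a took 6.93%, 7.26% and 6.19%, against 4.93% and 2.29%. Smc4 took 4.72%, 4.94% and 5.17% in the articular zone, against 5.18% and 12.3% in the mature zone, and Cdk1 took 4.84%, 4.88% and 4.60%, against 5.45% and 9.99%. The shares of Smc4 and Cdk1 stood out in mature zone replicate 3 and not in mature zone replicate 2. By role, the ratio of the articular mean to the mature mean of the summed CPM was 3.12 for chromosome structure, 2.97 for cohesion, 2.92 for the passenger complex, 2.47 for the kinetochore, 2.35 for the kinesins, 2.2 for spindle assembly and cytokinesis, 1.83 for mitotic entry and 1.81 for the checkpoint. The differences between roles were not tested.

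Spread between libraries was described by a different measure in each zone, so the zones are not compared in it. The highest articular library was 1.38 times the lowest in the median mitosis gene, against 1.72 times in the median gene with counts in every articular library, and 5 of the 50 (Melk, Bub1, Ttk, Kif11 and Kif14) were above 2 times. No articular library was the high one throughout, since replicate 2 was the highest library for 13 genes, replicate 3 for 18 and replicate 4 for 18. Mature zone replicate 3 was below mature zone replicate 2 for 42 of the 50 genes (84.0%), against 50.6% of all genes tested. The median ratio of mature zone replicate 3 to mature zone replicate 2 was 0.621 over the mitosis genes, against 0.996 over the 11411 tested genes with counts in both. This ratio has a direction, so a median near 1 does not show that the mature zone libraries agreed gene by gene. The ratio was lowest for Ttk, at 0.0106. The 8 genes with higher CPM in mature zone replicate 3 were Smc4 (1.71), Kif22 (1.70), Cenpe (1.65), Melk (1.64), Cdk1 (1.32), Mad2l1 (1.20), Incenp (1.09) and Kif20b (1.02). In FPKM, however, Mad2l1, Incenp and Kif20b were lower in that library. They had 9.02, 0.952 and 2.62 FPKM there, against 9.53, 1.04 and 3.28 FPKM in mature zone replicate 2. Mature zone replicate 3 also had the higher summed level of the 12 chondrocyte markers, 44544 CPM against 26509 CPM in mature zone replicate 2, and the part of this in the lower mitosis genes was not tested.

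Other genes of the cell cycle were counted by list. Of 80 tested genes of mitosis outside the 50, 5 were called higher and none lower in edgeR, where 1.14% of all genes tested were called higher, with 68 positive log2 fold changes and a median of 1.01. DESeq2 called 22 of them higher, where it called 7.9% of all genes tested. With limma-voom the count was 0, where 0.656% of all genes tested were called higher. Casc5, the kinetochore scaffold Knl1, had 52.9, 86.9 and 46.9 CPM in the articular zone, against 10.3 and 7.34 CPM in the mature zone (adjusted p = 0.0186 in edgeR). Mastl, the kinase that silences the phosphatase opposing Cdk1, had 31.8, 48.1 and 19.3 CPM in the articular zone, against 1.45 and 2.35 CPM in the mature zone (log2 fold change 4.12, SE 0.67, edgeR adjusted p = 0.0203). Cdca2, which targets a phosphatase to chromatin, and Ncapg2, a subunit of condensin II, had log2 fold changes of 2.09 and 2.01 with adjusted p values of 0.0392 and 0.0446 in edgeR. The fifth was Cdca5, or sororin, which stabilises cohesin (2.67, adjusted p = 0.0466 in edgeR).

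Genes of G1/S and DNA replication, which prepare the cycle that mitosis ends, had 4 of 43 called higher and none lower in edgeR, beside the same 1.14% of all genes, with 41 positive log2 fold changes and a median of 0.96. DESeq2 called 15 of the 43 higher, where it called 7.9% of all genes tested. The count was 0 in the limma fits on FPKM, which called at most 0.0305% of all genes higher. Cdc7, the kinase that fires replication origins, had 912, 473 and 1072 counts in the articular zone, against 3 and 1 counts in the mature zone. Its CPM were 52.6, 29.9 and 53.9 in the articular zone, against 0.197 and 0.0713 in the mature zone (adjusted p = 0.00522 in edgeR). The DNA polymerase subunits Pola1 and Pole had log2 fold changes of 1.85 and 1.58 (adjusted p = 0.0318 and 0.0489 in edgeR). Rrm1, the large subunit of ribonucleotide reductase, had 179, 178 and 161 CPM in the articular zone, against 76.5 and 76.9 CPM in the mature zone (adjusted p = 0.0288 in edgeR).

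The anaphase-promoting complex marks mitotic regulators for destruction, and cohesin holds sister chromatids together. Of 22 tested subunits of the anaphase-promoting complex and cohesin, none was called in edgeR, 11 had a positive log2 fold change, and the median was 0.01. In DESeq2, 4 of them were called higher, against 7.9% of all genes tested. By FPKM the most abundant were Anapc5 and Cdc16, both subunits of the complex. Anapc5 had 249, 236 and 257 CPM in the articular zone, against 240 and 222 CPM in the mature zone, and Cdc16 had 145, 162 and 121 CPM, against 161 and 206 CPM. Of 15 regulators of G2/M transcription none was called in edgeR, with a median of 0.44. In DESeq2, 1 of the 15 was called higher, beside the same 7.9% of all genes tested. The most abundant by FPKM were Tfdp1, the dimer partner of E2F factors, with 60.8 to 69.0 CPM in the articular zone, against 47.4 and 54.4 CPM in the mature zone, and Rbbp4, a subunit of the MuvB core, with 308 to 312 CPM, against 301 and 225 CPM.

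Among 10 tested inhibitors of the cell cycle none was called higher and 1 was called lower in edgeR, where 1.85% of all genes tested were called lower. DESeq2 called 1 higher and 1 lower, where it called 1036 of the 13119 genes tested higher and 766 lower. The limma fits on FPKM called none, and at most 4 of all genes higher and 2 lower. Cdkn1a, or p21, which blocks cyclin-dependent kinases, fell to 41.5, 69.2 and 58.4 CPM in the articular zone, against 152 and 217 CPM in the mature zone. The log2 fold change was -1.71 (SE 0.29, adjusted p = 0.0248 in edgeR). Mature zone replicate 3, in which most mitosis genes were lowest, had the highest Cdkn1a of the 5 libraries. The part of Cdkn1a in the lower mitosis genes was not tested.

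**Figure D4:**
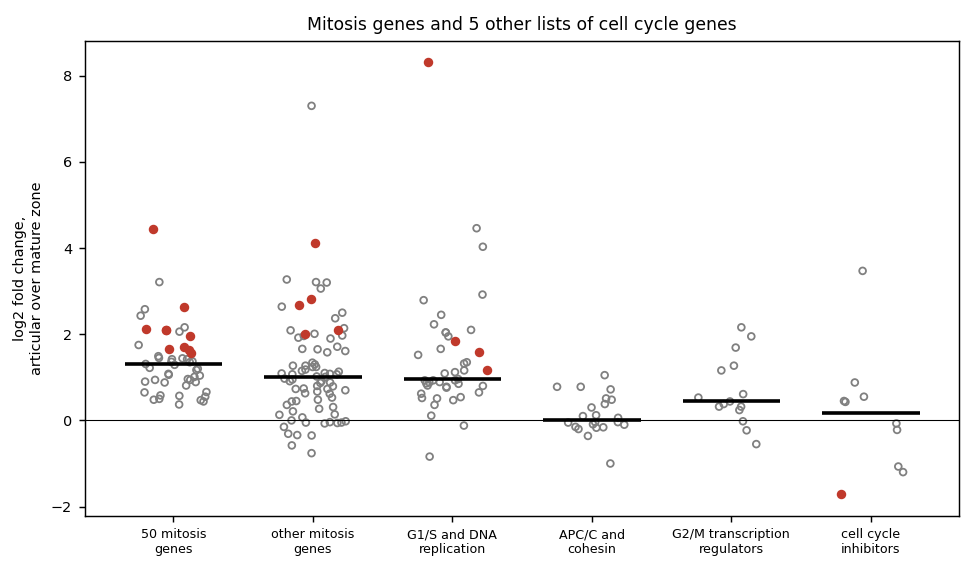
Log2 fold change, articular over mature zone, of each tested gene in the mitosis group and in 5 other lists of cell cycle genes, with a bar at the median of each list and filled points for called genes. The medians are 1.30 for the 50 mitosis genes, 1.01 for other mitosis genes, 0.96 for G1/S and DNA replication, 0.44 for regulators of G2/M transcription, 0.18 for inhibitors and 0.01 for subunits of the anaphase-promoting complex and cohesin.

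Markers of other cell types that a captured section could hold were summed in each library. The 7 endothelial markers summed to 122, 10.6 and 93.7 CPM in the articular zone, against 17.5 and 0.143 CPM in the mature zone, and 1 of 6 tested was called higher, Emcn, with 377, 68 and 193 counts in the articular zone against 0 and 0 counts in the mature zone. The 9 myeloid markers summed to 170, 14.8 and 72.7 CPM in the articular zone, against 40.0 and 25.5 CPM in the mature zone, with 4 tested and none called. Articular zone replicate 3 had the lowest endothelial and myeloid sums of its zone. The part of such cells in the summed level of the 50 mitosis genes, 4782 CPM in that library, was not tested. The 9 skeletal muscle markers summed to 1141, 41.5 and 19.2 CPM in the articular zone, against 960 and 94.1 CPM in the mature zone, so that both libraries numbered 2 stood apart, and none was called.

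The 6 osteoclast markers in the table summed to 575, 396 and 467 CPM in the articular zone, against 408 and 190 CPM in the mature zone, with none of 4 tested called and Oscar at 0 counts in every library. The 7 osteoblast markers summed to 353, 670 and 984 CPM in the articular zone, against 936 and 665 CPM in the mature zone, with none of 5 tested called. Erythroid markers summed to 2.09 to 19.9 CPM in the articular zone, against 6.70 and 4.56 CPM in the mature zone, and Hba-a1, Hba-a2, Hbb-b1 and Hbb-b2 were at 0 counts in every library. In the deposited FPKM, however, Hbb-b1 averaged 11.9 over the libraries, so its 0 counts do not show that the transcript was absent. Immediate early genes, which handling of tissue can raise, summed to 67.9 to 107 CPM in the articular zone, against 92.4 and 56.5 CPM in the mature zone, with none of 7 called. The part of dividing cells of these other types in the mitosis genes was not tested.

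**Figure D5:**
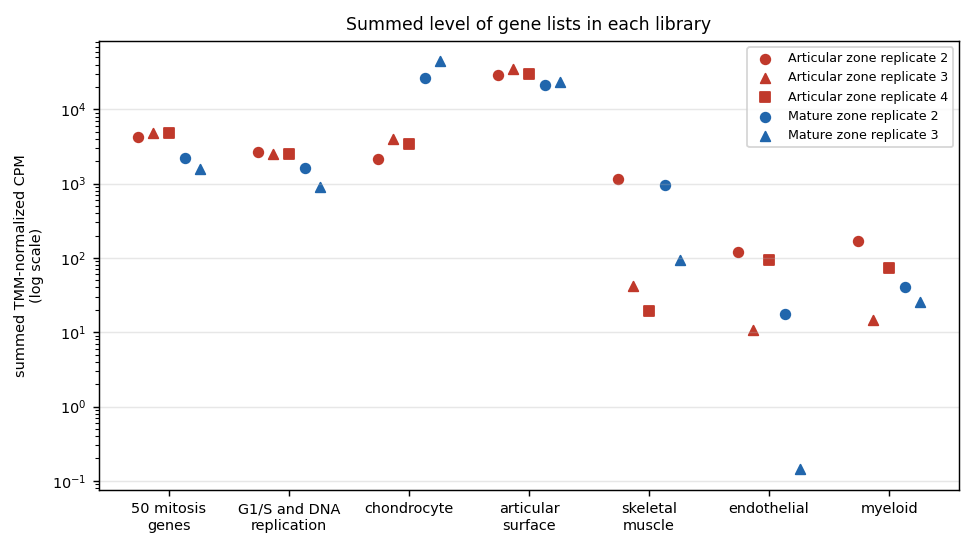
Summed TMM-normalized CPM of gene lists in each library on a log axis, with articular zone replicates 2, 3 and 4 in red and mature zone replicates 2 and 3 in blue. The 50 mitosis genes sum to 4228 to 4819 CPM in the articular zone, against 2218 and 1595 CPM in the mature zone. The muscle, endothelial and myeloid sums vary more within the articular zone, and their part in the mitosis sums was not tested.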

How the data were processed

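The authors made poly(A)-selected single-end libraries from laser-captured articular and mature zones, 6 samples in all, 5 with values. The authors trimmed reads with Trimmomatic 0.32 and mapped them to mm10 with SHRiMP. The counting tool and whether it used strand are not stated in the labels or methods. Counts were deposited raw, as reads per gene symbol. The deposited FPKM were scaled by the authors for gene length and mapped fragments, with 0.1 as the lowest value. The authors' table of DESeq normalized means, fold changes and p-values was not used.

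Raw counts were tested with edgeR 4.0.16 (R 4.3.3): at least 10 counts in at least 2 libraries, TMM, robust glmQLFit, glmQLFTest on zone alone with 3 residual degrees of freedom, and Benjamini-Hochberg adjustment over 13119 genes. The common biological coefficient of variation was 0.68. Counting depth was 15449883 to 18884685 per library. The test was run on simulated counts first.

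The 50 genes, their roles and the other lists were chosen with earlier results of these data known. Values in every library are given in full for called genes and for the most and least abundant of each role by FPKM. Of the other cell cycle lists, up to 4 called genes with the smallest p are named, or the 2 most abundant by FPKM where none was called; other genes given in full, and Cdca5, were chosen after their values were seen. Marker lists are given as sums, calls and genes at 0. Alternatives were other normalizations and filters, DESeq2 1.42.0, limma 3.58.1 on counts (voom) and on log2(FPKM + 1) or log2(FPKM + 0.1), a replicate block, an adjusted p under 0.01 and leaving out libraries. Gene overlaps came from GENCODE M21. Python 3.11.15 (pandas 2.3.3, numpy 2.4.6, matplotlib 3.10.9) made the tables and figures.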

Additional observations from a re-analysis of the deposited data

How the results depend on the processing

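The direction of the mitosis genes held more widely than the number of calls. All 10 called genes were among the 10 called with DESeq2 size factors, the 11 with upper-quartile normalization and the 15 with no filter, and 6 of them were among the 8 called with limma-voom. Calls numbered 16 with at least 10 counts in every library, 28 with DESeq2, 30 without both libraries numbered 2, 2 with a replicate block, 0 at an adjusted p under 0.01, 0 with limma on log2(FPKM + 1) or log2(FPKM + 0.1) (39 at an unadjusted p under 0.05 in each) and 1 with limma on unfiltered log2(FPKM + 1). With 1 library left out, calls ranged from 0 to 27. The share of all genes at an unadjusted p under 0.05 was not counted in the fits on FPKM. None was called lower in any of these settings. The median log2 fold change of 1.30 ranged from 0.99 to 1.79 with 1 library left out and was 1.75 without both libraries numbered 2. The log2 fold change of Kif2c ran from -0.41 without mature zone replicate 3 to 3.34 without mature zone replicate 2 and was 3.51 without both libraries numbered 2, and the cause was not tested.

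Over all genes tested, the 150 calls higher became 251 with no filter, 230 with at least 10 counts in every library, 1036 with DESeq2, 86 with limma-voom, 0, 4 and 2 with the 3 limma fits on FPKM (pseudocount 1, pseudocount 0.1 and no filter), 81 with the replicate block, 1024 without both libraries numbered 2, 5 at an adjusted p under 0.01, and 0 to 843 with 1 library left out. The 243 calls lower became 766 with DESeq2, 0, 2 and 2 with the 3 FPKM fits, 145 with the block, 567 without both libraries numbered 2, 27 at an adjusted p under 0.01, and 13 to 446 with 1 library left out. Fits without a mature zone library assume that the one left varies like the articular zone libraries. The block pairs replicates 2 and 3 by number alone, which the labels do not describe as a pairing. Deviations of same-numbered libraries from their zone means correlated at 0.145 and 0.131 across genes. The deviations of the mature zone libraries are mirror images of each other, so these values cannot decide whether the libraries are paired.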
